A study of Mus musculus with 2 samples.

Results

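The 41 genes described here encode RNA polymerase II subunits, BET proteins, transcription kinases and cyclins, elongation factors and Mediator subunits. They were chosen by symbol, and all 41 matched a gene among the 55536 annotated genes of GENCODE M21. RNA bound to chromatin was sequenced, as total RNA, in bone marrow-derived macrophages, which are macrophages grown in culture from mouse marrow. The cells were of strain C57BL/6J, and every library came from cells given lipid A, the lipopolysaccharide portion recognised by Toll-like receptor 4, at 100 ng/ml for 75 min. There was 1 group with 2 libraries, labelled biological replicates 2 and 1 and called library 2 and library 1 here, which carry the same donor label. Library 2 was made from 500 ng of RNA and library 1 from 250 ng, both with fragments of 250 to 400 bases. Untreated cells, other times and the rest of the cell were not analysed here, so the values are levels within lipid A-treated cells and no gene can be called induced or repressed. The labels do not say that the cultures came from different mice, so the spread between the libraries may be technical.

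RNA polymerase II starts at a promoter with the help of Mediator, a large complex that links bound activators to the polymerase. In many genes it then pauses a short way into the gene, held by NELF and DSIF, until the kinase P-TEFb (Cdk9 with cyclin T) phosphorylates the polymerase and both factors. BET proteins, which read acetylated histones, and the super elongation complex help to bring P-TEFb to genes, whereas the 7SK RNA and its proteins hold it inactive. Release from the pause is a known control step for inflammatory genes of macrophages.

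Library 2 held 29638814 estimated counts on annotated genes and library 1 held 21453617. A count of 3 corresponded to 0.101 CPM (counts scaled to the library total) in library 2 and 0.140 in library 1. Levels are in TPM, estimated counts scaled by transcript length and by the table's total. A gene was taken as expressed at 1 TPM or more in both libraries. Of the macrophage markers, 7 of 8 were expressed, with summed levels of 374 TPM in library 2 and 240.3 TPM in library 1. Fcgr1 was the exception, at 2.09 TPM in library 2 and 0.93 TPM in library 1. None of 4 T cell, 4 B cell, 4 neutrophil or 5 fibroblast and endothelial markers was expressed. Their summed levels in libraries 2 and 1 were 0.65 and 1.51 TPM for T cells, 0.09 and 0.07 for B cells, 0.24 and 0.52 for neutrophils, and 1.66 and 1.32 for fibroblasts and endothelium. Cd3e, Cd3g, Cd8a, Pax5, Ly6g and Mpo were listed at 0 in both libraries. The whole T cell sum thus came from 1 marker, which passed 1 TPM in library 1 alone.

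Much of the signal of these genes lay on transcripts annotated as retained intron, as described further on. Of the 34 members with such a transcript, 23 had one that holds a whole intron of a coding transcript. In chromatin RNA, an intron that is retained cannot be told apart from one not yet removed. Stretches of 4 such whole introns are printed as examples. Not every transcript of this class holds one, so they do not stand for all the TPM of the class. They come from the 4 members with the highest level on retained intron transcripts among those with an intron of at most 260 bases between coding exons, wholly inside such a transcript at 1 TPM or more. Sequences are from the GENCODE M21 transcripts on mm10, read 5′ to 3′ on the gene's strand. Capitals mark the intron, and lower case marks the 10 exon bases on either side.
Ccnl1, chr3:65947999-65948271, minus strand: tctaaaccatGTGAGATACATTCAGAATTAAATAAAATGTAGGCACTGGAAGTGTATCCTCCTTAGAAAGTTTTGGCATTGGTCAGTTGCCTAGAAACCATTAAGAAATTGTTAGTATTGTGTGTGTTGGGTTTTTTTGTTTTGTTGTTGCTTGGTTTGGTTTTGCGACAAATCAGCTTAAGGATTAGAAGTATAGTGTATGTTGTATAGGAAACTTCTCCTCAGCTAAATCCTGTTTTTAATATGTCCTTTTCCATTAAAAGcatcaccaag
Brd2, chr17:34112699-34112865, minus strand: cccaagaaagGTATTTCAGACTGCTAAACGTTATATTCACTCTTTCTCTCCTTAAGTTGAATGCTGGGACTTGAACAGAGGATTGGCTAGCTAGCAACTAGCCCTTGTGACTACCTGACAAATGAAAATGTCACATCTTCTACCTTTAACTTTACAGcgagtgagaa
Paf1, chr7:28395530-28395638, plus strand: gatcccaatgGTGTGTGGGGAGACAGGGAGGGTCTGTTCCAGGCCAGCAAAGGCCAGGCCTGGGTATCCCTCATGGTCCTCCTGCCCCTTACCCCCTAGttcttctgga
Med12, chrX:101286191-101286377, plus strand: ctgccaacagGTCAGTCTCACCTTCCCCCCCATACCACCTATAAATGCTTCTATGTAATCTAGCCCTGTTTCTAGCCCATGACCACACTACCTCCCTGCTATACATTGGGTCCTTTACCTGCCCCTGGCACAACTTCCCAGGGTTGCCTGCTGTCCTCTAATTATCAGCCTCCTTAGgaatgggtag
Each intron starts with GT and ends with AG, the letters of ordinary introns. The introns are 253 bases long in Ccnl1, 147 in Brd2, 89 in Paf1 and 167 in Med12. The transcripts that hold them stood at 45.7 TPM in library 2 and 24.1 TPM in library 1 in Ccnl1, and at 86.7 TPM in library 2 and 54.0 TPM in library 1 in Brd2. The Paf1 transcript was at 5.13 TPM in library 2 and 5.89 TPM in library 1, and the Med12 transcript at 6.36 TPM in library 2 and 5.29 TPM in library 1. All 4 were found in both libraries, and the Paf1 transcript rested on the fewest estimated counts, 55.5 in library 2 and 57.8 in library 1.

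Nearly all 41 genes were present on chromatin, over a wide range of levels. In all, 40 were expressed, where 34.7% of the 22028 protein-coding genes were, and Nelfa was the exception. Of the 41, 21 stood at 10 TPM or more in both libraries, a level that 12.0% of all protein-coding genes and 34.7% of the 7633 expressed ones reached. The median of the 41 was 16.3 TPM in library 2 and 11.0 TPM in library 1, a mean of 13.7 ± 3.71 TPM (SD, n = 2). The median expressed protein-coding gene had 10.4 TPM in library 2 and 5.82 TPM in library 1. Above that median in both libraries were 25 of the 40 expressed members, against 45.5% of expressed protein-coding genes. Brd2 and Ccnl1 together held 36.5% of the summed TPM of the 41 genes in library 2 and 36.6% in library 1. In bulk libraries such as these, fewer cells with an RNA and less of it per cell cannot be told apart.

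**Figure D1:**
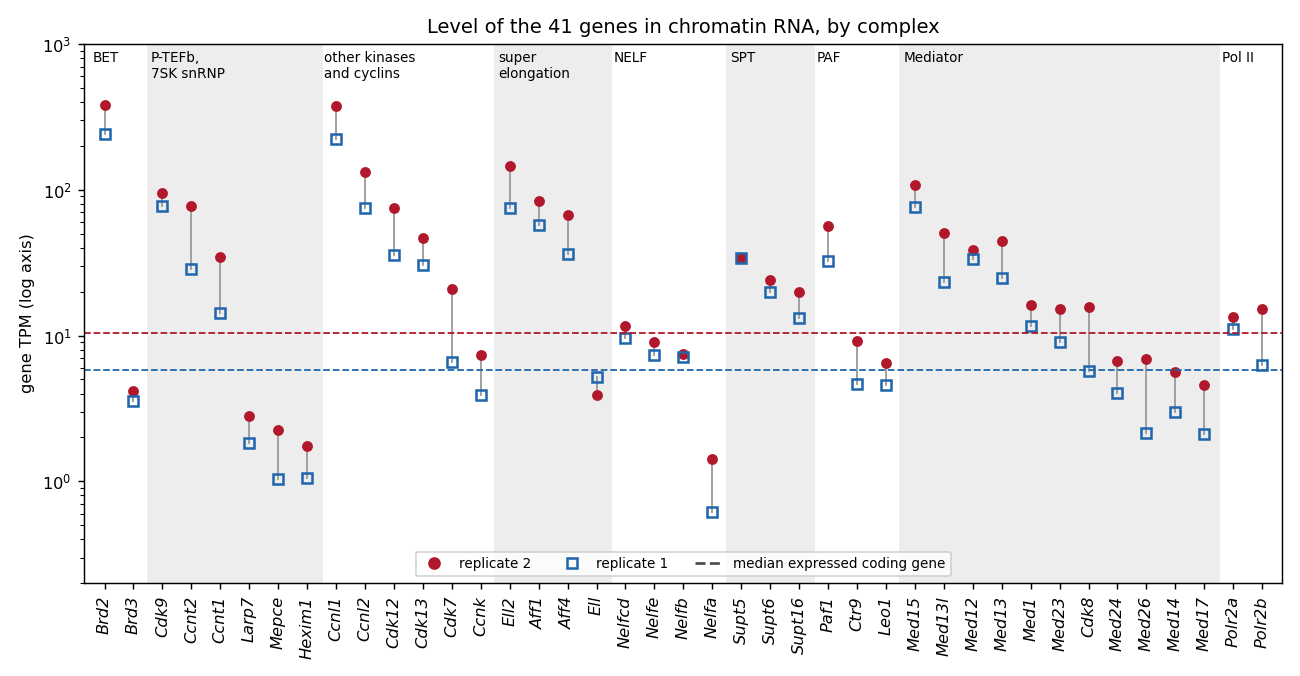
Level of each of the 41 genes in TPM (log axis), grouped by complex, with a filled circle for library 2, an open square for library 1 and dashed lines at the median expressed protein-coding gene of each library. Brd2 (382 TPM in library 2 and 240.2 TPM in library 1) and Ccnl1 (375 TPM in library 2 and 222 TPM in library 1) are at the top, and Nelfa (1.43 TPM in library 2 and 0.62 TPM in library 1) is at the bottom.

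The levels of neighbouring genes were mostly not separated by the replicates. Ordered by mean TPM, the 41 genes form 40 neighbouring pairs. The mean ± SD ranges overlapped in 39 of these pairs. These SDs include the difference in TPM that most genes share between the libraries, so this overlap does not measure how far neighbouring genes are apart. The order within a pair, which such a shared shift leaves alone, differed between the libraries in 24 and was the same in 16. Only the broad order can therefore be read. Spearman's rho between the libraries was 0.963 across the 41 genes, which share the libraries' composition and are not independent replicates. Ell shifted most, by 8 places.

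The core subunits of RNA polymerase II stood a little above the median expressed gene by gene TPM, which held for Polr2a but not for Polr2b without transcripts of few counts. Polr2a, the catalytic largest subunit, was at 13.3 TPM in library 2 and 11.0 TPM in library 1. Polr2b, its next largest partner, was at 15.2 TPM in library 2 and 6.32 TPM in library 1. Both exceeded the median expressed protein-coding gene in both libraries. The level of Polr2b rested in large part on short retained intron transcripts of few counts. With only transcripts of 20 or more estimated counts in both libraries, a choice made after seeing the data, Polr2b was at 4.14 TPM in library 2 and 2.25 TPM in library 1. The median expressed protein-coding gene was then at 8.09 TPM in library 2 and 4.42 TPM in library 1, above Polr2b and below Polr2a, which was at 11.9 TPM in library 2 and 9.80 TPM in library 1. On these levels 25 of the 40 expressed members were above the median in both libraries, against 46.2% of expressed protein-coding genes.

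The BET genes were far apart. Brd2 (chromosome 17, 34112023 to 34122634, minus strand) was the highest of the 41 by gene TPM, at 382 TPM in library 2 and 240.2 TPM in library 1. Brd3 (chromosome 2, 27445579 to 27507662, minus strand) was at 4.19 TPM in library 2 and 3.54 TPM in library 1. Both genes encode proteins with a pair of bromodomains that bind acetylated histones. By gene TPM Brd2 was 91.2-fold above Brd3 in library 2 and 67.9-fold in library 1, the largest difference of the 4 measures used. On coding transcripts alone, Brd2 had 60.3 TPM in library 2 and 30.0 TPM in library 1, and Brd3 had 2.47 TPM in library 2 and 2.17 TPM in library 1. On these Brd2 was above Brd3 in both libraries, by 4.61 on the log2 scale in library 2 and by 3.79 in library 1. Brdt, the BET gene of the testis, was at 0.17 TPM in library 2 and 0.03 TPM in library 1. Brd2 shares 3094 bases with H2-DMa on the opposite strand, and whether reads were counted by strand is unknown here.

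P-TEFb subunits were high and the proteins of its inhibitory particle were low. Cdk9, the kinase, was at 95.5 TPM in library 2 and 77.6 TPM in library 1. Its cyclin partner Ccnt2 was at 77.6 TPM in library 2 and 28.8 TPM in library 1, and Ccnt1 at 34.3 TPM in library 2 and 14.4 TPM in library 1. All 3 exceeded the median expressed gene in both libraries. Of the proteins that hold P-TEFb with the 7SK RNA, Hexim1, which inhibits the kinase, was at 1.75 TPM in library 2 and 1.05 TPM in library 1. Larp7, which binds the end of 7SK, was at 2.80 TPM in library 2 and 1.82 TPM in library 1. Mepce, which caps 7SK, was at 2.26 TPM in library 2 and 1.03 TPM in library 1. The medians were 77.6 TPM in library 2 and 28.8 TPM in library 1 for the P-TEFb subunits, and 2.26 TPM in library 2 and 1.05 TPM in library 1 for the 3 proteins. The 7SK proteins were thus at 0.217-fold of the median expressed gene in library 2 and 0.180-fold in library 1. The lowest P-TEFb subunit was above the highest 7SK protein in both libraries. These low levels rested on few estimated counts, from 132 to 197 in library 2 and from 72 to 101 in library 1. The 7SK RNA gene itself, Rn7sk, was at 11954 TPM in library 2 and 5883 TPM in library 1, but it is short, and TPM of short RNAs in a total RNA table is not on the same footing as that of long ones. Hexim2, a paralog of Hexim1, was under 1 TPM in both libraries, at 0.99 TPM in library 2 and 0.69 TPM in library 1. In the second quantification it was at 3.57 TPM in library 2 and 2.11 TPM in library 1.

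The other transcription kinases and cyclins covered a wide range. Ccnl1 (chromosome 3, 65946151 to 65958249, minus strand), a cyclin linked to splicing, was at 375 TPM in library 2 and 222 TPM in library 1, next after Brd2 in both. In the second quantification the order of these 2 genes turned: Ccnl1 was at 548 TPM in library 2 and 292 TPM in library 1, and Brd2 at 448 TPM in library 2 and 242 TPM in library 1. The Ccnl1 paralog Ccnl2 was at 133 TPM in library 2 and 74.9 TPM in library 1. Cdk12, a kinase of the polymerase tail, was at 74.8 TPM in library 2 and 35.5 TPM in library 1. Its paralog Cdk13 was at 46.4 TPM in library 2 and 30.5 TPM in library 1, and the partner of both, Ccnk, at 7.32 TPM in library 2 and 3.90 TPM in library 1. The partner cyclin was thus below both kinases in both libraries. Cdk7, the kinase of TFIIH, was at 20.8 TPM in library 2 and 6.59 TPM in library 1.

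In the super elongation complex, 3 of 4 members were high. Ell2, which raises the speed of the polymerase, was at 145 TPM in library 2 and 75.3 TPM in library 1. Aff1, a scaffold, was at 83.1 TPM in library 2 and 57.3 TPM in library 1, and the scaffold Aff4 at 66.7 TPM in library 2 and 36.4 TPM in library 1. Ell was the low member, at 3.91 TPM in library 2 and 5.22 TPM in library 1. Ell2 was above Ell in both libraries, 37.1-fold in library 2 and 14.4-fold in library 1. The fold was 13.0 in library 2 and 6.01 in library 1 on coding transcripts, and 11.9 in library 2 and 3.88 in library 1 on counts per exonic length. Aff3, another scaffold paralog, was at 0.05 TPM in library 2 and listed at 0 in library 1. Ell3 was under 1 TPM in both, at 0.62 TPM in library 2 and 0.40 TPM in library 1. The Ell partner Eaf1 was at 39.8 TPM in library 2 and 28.5 TPM in library 1. Its paralog Eaf2 was at 0.05 TPM in library 2 and 0.04 TPM in library 1, but at 5.34 TPM in library 2 and 2.11 TPM in library 1 in the second quantification.

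NELF subunits were near the median expressed gene or below it, and the SPT factors above it. NELF subunits were at 11.6 TPM in library 2 and 9.67 TPM in library 1 for Nelfcd, at 9.07 TPM in library 2 and 7.34 TPM in library 1 for Nelfe, and at 7.44 TPM in library 2 and 7.12 TPM in library 1 for Nelfb. Nelfcd was above the median expressed gene in both libraries, and Nelfe and Nelfb only in library 1. Nelfa, the remaining subunit, was at 1.43 TPM in library 2 and 0.62 TPM in library 1, with 97 estimated counts in library 2 and 40 in library 1. It was the lowest of the 41 genes in both libraries, and it overlaps Nsd2 by 60 bases on the opposite strand. Supt5, the large subunit of DSIF, was at 34.1 TPM in library 2 and 34.2 TPM in library 1. Supt6, a histone chaperone that travels with the polymerase, was at 24.1 TPM in library 2 and 20.0 TPM in library 1. Supt16, of the histone chaperone FACT, was at 19.8 TPM in library 2 and 13.1 TPM in library 1. All 3 SPT genes were above the median expressed gene in both libraries. In the PAF complex, which rides with the polymerase, Paf1 was at 56.4 TPM in library 2 and 32.5 TPM in library 1. Ctr9 was at 9.24 TPM in library 2 and 4.62 TPM in library 1, and Leo1 at 6.45 TPM in library 2 and 4.57 TPM in library 1. Paf1 was above both partners in both libraries.

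Among Mediator genes, Med15, Med12, Med13 and Med13l led by gene TPM. The kinase module can detach from the complex and holds Cdk8. Med12, which activates Cdk8, was at 38.4 TPM in library 2 and 33.7 TPM in library 1. Med13, which joins the module to the rest of Mediator, was at 44.3 TPM in library 2 and 24.9 TPM in library 1, and its paralog Med13l at 50.3 TPM in library 2 and 23.4 TPM in library 1. Cdk8 was at 15.6 TPM in library 2 and 5.75 TPM in library 1, below Med1 in both libraries. The median of these 4 genes was 41.4 TPM in library 2 and 24.1 TPM in library 1, against 6.95 TPM in library 2 and 4.01 TPM in library 1 over the 7 other members. Of the paralogs, Med12l was at 0.24 TPM in library 2 and 0.11 TPM in library 1, and Cdk19 at 0.33 TPM in library 2 and 0.21 TPM in library 1. Among the 7 others Med15, a tail subunit that activators contact, was at 109 TPM in library 2 and 76.1 TPM in library 1. Med1, which nuclear receptors contact, was at 16.3 TPM in library 2 and 11.6 TPM in library 1, the tail subunit Med23 at 15.2 TPM in library 2 and 8.97 TPM in library 1, and the tail subunit Med24 at 6.71 TPM in library 2 and 4.01 TPM in library 1. Med14, the backbone subunit, was at 5.61 TPM in library 2 and 3.0 TPM in library 1, and Med17, of the head, at 4.57 TPM in library 2 and 2.12 TPM in library 1. Med26, which recruits the super elongation complex, was at 6.95 TPM in library 2 and 2.13 TPM in library 1. By gene TPM the 7 others thus split into Med15, a middle pair and 4 genes at low levels, with no gene near Med15. Retained intron transcripts held 62.9% of the TPM of Med15 in library 2 and 63.9% in library 1. On coding transcripts alone Med15 was at 23.8 TPM in library 2 and 19.4 TPM in library 1. On these Med13 was above it, at 36.0 TPM in library 2 and 21.1 TPM in library 1. Med12 was close to it, at 22.3 TPM in library 2 and 20.2 TPM in library 1, and Med13l lower, at 10.7 TPM in library 2 and 9.54 TPM in library 1.

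The remaining genes of these complexes had a lower median, though not each of them was low. Of 51 other protein-coding subunits and paralogs, 35 were expressed, 11 were under 1 TPM in both libraries and 5 were on either side of it. Their median was 3.95 TPM in library 2 and 1.86 TPM in library 1. Of the 51, 7 were above the median expressed protein-coding gene in both libraries, among them Eaf1. Besides those named above, the genes under 1 TPM in both libraries were Med9, Med18, Med30 and Polr2h. Polr2h, a small subunit of the polymerase, was at 0.97 TPM in library 2 and 0.67 TPM in library 1. In the second quantification 6 of the 11 were under 1 TPM in both libraries, and Eaf2, Hexim2 and Polr2h were at 1 TPM or more in both. Med30 was at 0.08 TPM in library 2 and 0.04 TPM in library 1. These others were chosen as partners and paralogs of the 41, and their lower median is a description, with no test.

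Retained intron transcripts held a large part of the members' level, close to that of other genes per gene. Of the 41, 34 have a transcript annotated as retained intron, and Brd3, Cdk12, Ell, Hexim1, Med1, Med26 and Polr2a have none. Over the 34, the median share of transcript TPM on such transcripts was 45.3% in library 2 and 42.1% in library 1. The median of the mean share was 45.2%, with quartiles of 33.6% and 63.1%, against 45.9% over 5233 expressed protein-coding genes with such a transcript. Of the 33 expressed members with one, 12 had 50% or more in both libraries, where 36.4% of such protein-coding genes did. Summed over genes, the share was 53.9% of TPM in library 2 and 51.8% in library 1 for the 41 genes, against 39.4% in library 2 and 36.8% in library 1 for expressed protein-coding genes. Of estimated counts the members' share was 32.5% in library 2 (exact 95% interval 32.3 to 32.7%) and 28.6% in library 1 (28.3 to 28.9%), against 26.7% in library 2 and 21.8% in library 1 for expressed protein-coding genes. The median per gene on counts was 23.4% for the members and 29.3% for those genes, so on counts the sum and the median lay on opposite sides of the background. The intervals cover counting error only. On TPM the members' median per gene was close to the background, while their summed share, in which Brd2 and Ccnl1 weigh most, was higher in both libraries.

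**Figure D2:**
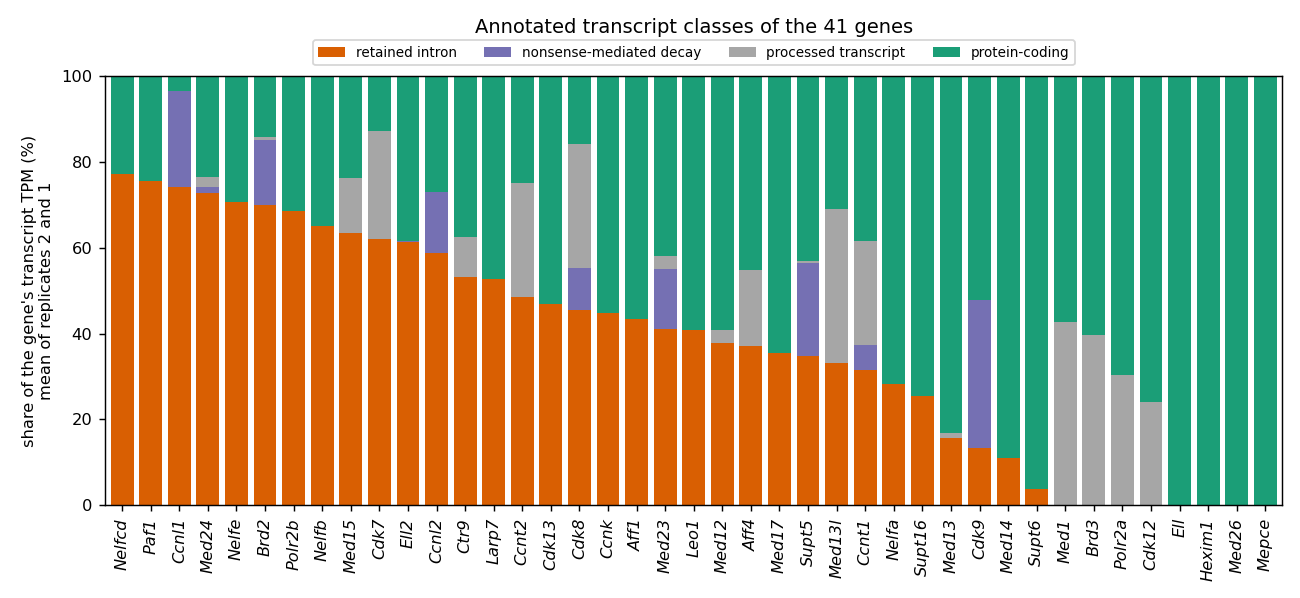
Share of each gene's transcript TPM on the annotated transcript classes, as the mean of libraries 2 and 1 in percent, ordered by the retained intron share. Nelfcd is highest at 77.2%, and Ell, Hexim1, Med26 and Mepce, with no TPM outside coding transcripts, are at the right.

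The genes ranged from almost none to over 70% of transcript TPM on such transcripts. Nelfcd had 76.4% in library 2 and 78.1% in library 1, and Paf1 79.1% in library 2 and 72.1% in library 1. Ccnl1 had 70.8% in library 2 and 77.7% in library 1, and Brd2 70.2% in library 2 and 69.9% in library 1. Of estimated counts, Nelfcd had 39.7% in library 2 and 43.3% in library 1, and Paf1 48.3% and 39.4%. Brd2 had 31.8% of counts in library 2 and 28.8% in library 1, whereas Ccnl1 had 70.0% and 71.8%. Med24 was highest on counts, at 81.5% in library 2 and 81.4% in library 1. Supt6 had 4.6% in library 2 and 3.05% in library 1, Med14 11.9% in library 2 and 10% in library 1, and Cdk9 13.3% in library 2 and 13.5% in library 1. Med13 had 17.1% in library 2 and 14.5% in library 1. Mepce has 1 such transcript and it was listed at 0 in both. These 5 genes were the ones under 20% of transcript TPM in both libraries, and this set depends on the measure. On estimated counts others were under 20% as well, such as Supt16 at 2.81% in library 2 and 1.89% in library 1. Cdk9 was at 21.9% of counts in library 2 and 17.9% in library 1. In the second quantification Med13 was at 31.3% in library 2 and 27.4% in library 1. A class of transcripts marked for nonsense-mediated decay held 36.0% of Cdk9 in library 2 and 32.9% in library 1, and 24.9% in library 2 and 19.7% in library 1 of Ccnl1. It held 13.5% of Brd2 in library 2 and 16.9% in library 1. Summed over the 41 genes that class held 9.70% of TPM in library 2 and 10.8% in library 1, against 3.72% in library 2 and 4.12% in library 1 over expressed protein-coding genes. Ccnl1, Brd2 and Cdk9 weigh most in this sum, and only 11 of the 41 genes have a transcript of the class, as do 2561 of the 7633 expressed protein-coding genes. The sum is therefore not a trait of each gene.

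The order of levels was different on coding transcripts alone. These held under 50% of transcript TPM in both libraries in 19 of the 40 expressed members, against 41.1% of expressed protein-coding genes. Ccnl1 had 15.9 TPM on coding transcripts in library 2 and 5.82 TPM in library 1. Ell2 had 51.0 TPM in library 2 and 31.4 TPM in library 1, Cdk12 56.4 TPM in library 2 and 27.1 TPM in library 1, and Cdk9 48.3 TPM in library 2 and 41.6 TPM in library 1. Ccnl1, next after Brd2 on all transcripts, was thus below each of these 3 genes on coding ones. Brd2, with 60.3 TPM in library 2 and 30.0 TPM in library 1, was highest in library 2 but below Cdk9, Aff1 and Ell2 in library 1. The transcript with the highest share of its gene's TPM, as the mean of both libraries, was coding in 24 genes and retained intron in 13. It was decay-marked in 1 and a processed transcript in 3. Over expressed protein-coding genes this transcript was coding in 59.5%, retained intron in 30.7%, decay-marked in 2.44% and processed in 7.22%.

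The introns that lie wholly inside a retained intron transcript were of ordinary kind. The members had 49 of them in 23 genes, with a median length of 198 bases, against 269 bases over 5967 introns of 2559 expressed protein-coding genes. All 49 started with GT and ended with AG, as did 98.5% (GT) and 99.5% (AG) of the 5967. The donor letters GTAAGT opened 8 of the 49 introns (16.3%) and 10.1% of the 5967, and GTGAGT opened 6 (12.2%) and 14.2%. Both were searched only at the intron's start on the gene's strand, where they cannot overlap. A match is a description of these letters only.

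Paralog pairs differed in how far their ratio depended on the measure. Ratios were taken within each library on per-length levels. The ratio of Cdk12 to Cdk13 was 0.69 on the log2 scale in library 2 and 0.22 in library 1, and that of Ccnt1 to Ccnt2 was -1.18 in library 2 and -1.0 in library 1. Ccnl1 was above Ccnl2 by 1.49 in library 2 and by 1.57 in library 1, but on coding transcripts alone it was below, at -1.11 in library 2 and -1.86 in library 1. The ratio of Aff1 to Aff4 was 0.32 in library 2 and 0.65 in library 1, and in the second quantification -0.32 in library 2 and 0.16 in library 1. Med13 over Med13l was -0.19 in library 2 and 0.09 in library 1, and on coding transcripts 1.76 in library 2 and 1.15 in library 1. Brd2 over Brd3, Cdk12 over Cdk13, Ccnt1 over Ccnt2 and Ell over Ell2 kept their direction in both libraries by all 4 measures.

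**Figure D3:**
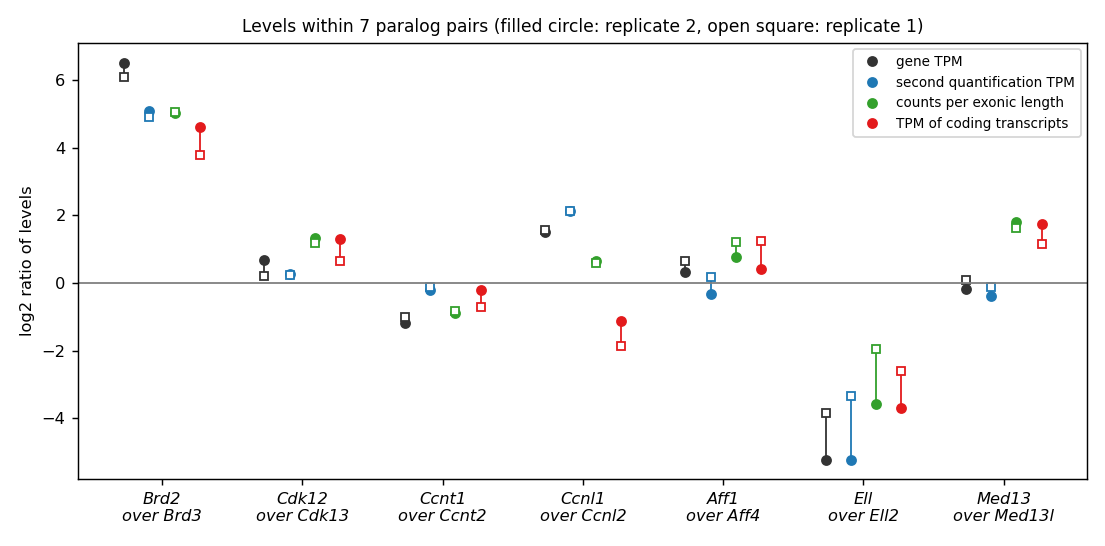
Log2 ratio of levels within 7 paralog pairs, with a filled circle for library 2 and an open square for library 1, by gene TPM, TPM in the second quantification, estimated counts per exonic length and TPM of coding transcripts. Brd2 over Brd3 and Cdk12 over Cdk13 are above 0 and Ccnt1 over Ccnt2 and Ell over Ell2 below 0 by all 4 measures, whereas Aff1 over Aff4, Ccnl1 over Ccnl2 and Med13 over Med13l lie on both sides of 0.

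Between the libraries, TPM was higher in library 2 in 39 of the 41 genes and lower in Ell and Supt5. The 41 genes held 0.564% of the counts on annotated genes in library 2 and 0.409% in library 1. Of the counts on protein-coding genes they held 0.853% in library 2 and 0.869% in library 1. Protein-coding genes thus took a larger part of the annotated counts in library 2, a difference in composition that TPM carries. The median TPM ratio, library 2 over library 1, was 1.69 for the 41 genes and 1.73 for expressed protein-coding genes. The members and the background were thus shifted alike, and counts were scaled by TMM (trimmed mean of M values), which sets the bulk of genes level. The direction of most genes depends on this scaling: 26 of the 41 were lower in library 2 after it and 15 higher. On that scale the median log2 ratio was -0.20 for the 41 genes and -0.12 for expressed protein-coding genes. With 1 library a side there is no error term and no test. At 2-fold or more, 0 members were higher in library 2, where 8.70% of the 14442 genes whose counts summed to at least 20 were, and 1 was lower, where 5.59% were. Those 14442 genes are of every type and reach down to a sum of 20 counts. The member of fewest counts, Nelfa, had 97 in library 2 and 40 in library 1, so these shares are not matched to the members in depth. The 1 lower gene was Ell, with 353 estimated counts in library 2 and 414 in library 1, at 0.405-fold after scaling (95% counting interval 0.350 to 0.467).

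**Figure D4:**
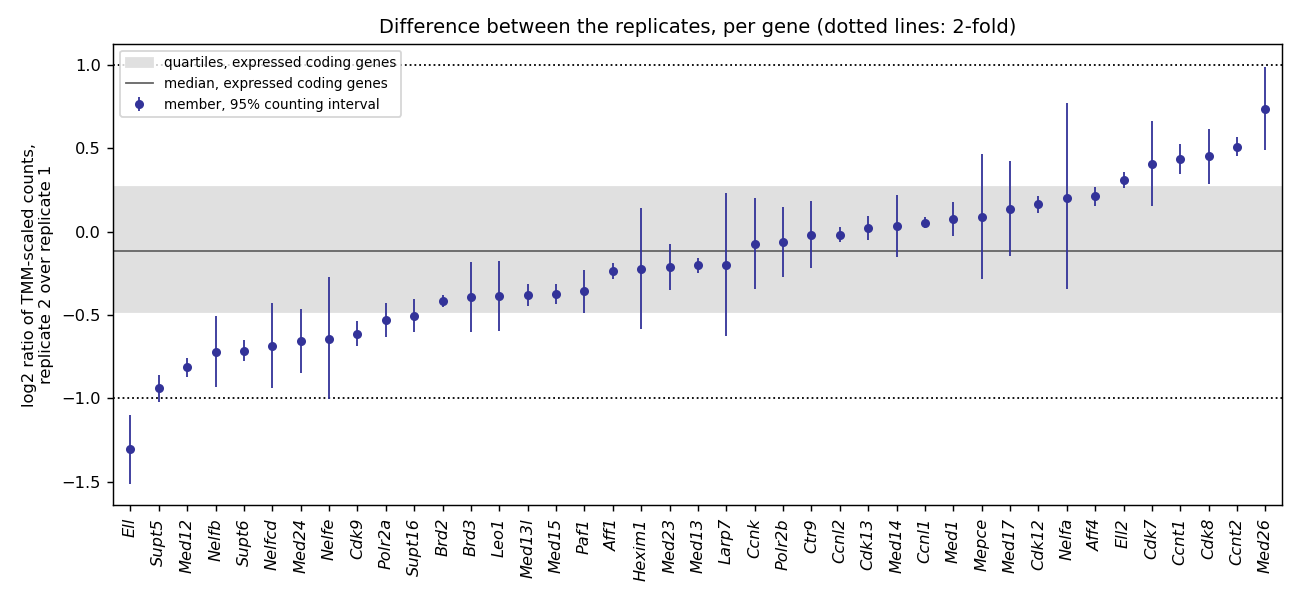
Log2 ratio of TMM-scaled counts, library 2 over library 1, for each of the 41 genes with its 95% counting interval, over the quartile range (grey) and median of expressed protein-coding genes; dotted lines mark 2-fold. Ell lies lowest, at -1.31, and Med26 highest, at 0.74.

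Within the 2-fold range, the genes lay on both sides of the median of expressed protein-coding genes. Of the 40 expressed members, the counting interval lay below that median for 19, above it for 12 and across it for 9. Over expressed protein-coding genes these shares were 33.4% below, 35.4% above and 31.2% across, and no difference from them was tested. Of the SPT genes, Supt5 was at 0.521-fold, Supt6 at 0.610-fold and Supt16 at 0.706-fold, and the intervals of all 3 lay below it. Of the NELF genes, Nelfb was at 0.607-fold, Nelfcd at 0.622-fold and Nelfe at 0.641-fold, and their intervals also lay below it, whereas Nelfa was at 1.15-fold (0.788 to 1.71), with an interval across it. Of the other kinases and cyclins, 5 of 6 had intervals above it, with Cdk7 at 1.32-fold and Cdk12 at 1.12-fold. Cdk8 (1.37-fold), Ccnt1 (1.35-fold) and Ccnt2 (1.42-fold) were above it as well, whereas Cdk9 was below, at 0.654-fold. Counting intervals leave out the variation between cultures, so these are descriptions of the 2 libraries. Med26 was highest, at 1.67-fold (1.41 to 1.98), with 611 estimated counts in library 2 and 174 in library 1. Its antisense neighbour Gm17435 had 1597 counts in library 2 and 327 in library 1, a scaled ratio of 2.32, and its part in the Med26 value was not tested. At 1.5-fold, 1 member was higher, where 20.2% of the same 14442 genes were, and 9 were lower, where 17.6% were. These shares too are not matched to the members in depth. Of the 41 genes, 15 overlap another gene that had 20 or more counts in both libraries, 12 of them on the opposite strand, and for these the reads of the gene and of its neighbour may not be told apart.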

How the data were processed

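Chromatin RNA of 2 libraries of 1 group was analysed. The members and the lists of partners, paralogs and markers were chosen with earlier results of these data known. The authors deposited estimated (expected) counts and TPM per gene and per transcript, made from reads aligned to the mm10 transcriptome of GENCODE M21, per the deposited text, and a further transcript table with its own estimated counts and TPM, called the second quantification here. The names of the columns are those of RSEM and kallisto, but no source used here names the aligner, the quantifier or the use of strand. Rows that name no annotated gene held 0.277% of counts in replicate 2 and 0.409% in replicate 1 and were left out. Replicate 2 is called library 2 and replicate 1 library 1.

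Gene levels are the deposited TPM. Retained intron shares are percentages of transcript TPM. Library ratios are library 2 over library 1 on estimated counts, scaled by TMM over genes whose counts summed to at least 20 (edgeR 4.0.16, R 4.3.3). The scaling was also run on simulated counts, where its factors were 0.995 for library 2 and 1.005 for library 1. In these data the factors were 1.24 for library 2 and 0.809 for library 1. The simulated libraries were thus nearly alike in composition, and they cannot show how the scaling does at the difference found here. Intervals are exact (Clopper-Pearson) 95% intervals, which cover counting error only, as does the 3 count floor. Python 3.11.15 with pandas 2.3.3 was used. Named genes are all 41 members and, of the others, the highest 3, the lowest 3 and those under 1 TPM in both; Polr2h, Cdk19, Med12l, Hexim2 and the like fall under the last. Some genes that this rule or the marker lists name are not reported here. Alternatives were other thresholds, scalings (DESeq2 1.42.0 size factors, library size), quantification, transcript classes and leaving out a replicate.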

Additional observations from a re-analysis of the deposited data

How the results depend on the processing

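The median level of the 41 genes was 13.7 TPM, but 72.0 with TPM rescaled to protein-coding genes and 21.7 in the second quantification, and between 11.0 and 16.3 with 1 replicate left out. The count expressed was 40, between 28 (threshold of 5 TPM) and 41 (0.5 TPM), 39 in the second quantification, and 40 to 41 with 1 replicate left out. The median retained intron share was 45.2%, but 23.4% on estimated counts, 55.2% with processed transcripts added and 49.6% in the second quantification, and 42.1 to 45.3% with 1 replicate left out. Members past 2-fold between the libraries numbered 1 (Ell), against 12 on TPM, 10 at 1.5-fold, 5 with library size only and 2 in the second quantification (Ell and Supt5). DESeq2 size factors and no minimum count gave 1. The median log2 ratio relative to expressed protein-coding genes was -0.087, and -0.020 on TPM with a pseudocount of 0.1, -0.0016 with a pseudocount of 1, -0.037 against genes at 10 TPM or more and -0.035 in the second quantification. The median size of the 7 paralog log2 ratios was 1.09, against 1.45 on coding transcripts, 1.26 on counts per exonic length and 0.26 in the second quantification, and 1.00 to 1.18 with 1 replicate left out. The direction turned for Ccnl1 over Ccnl2 on coding transcripts (-1.48), for Aff1 over Aff4 in the second quantification (-0.077), and for Med13 over Med13l on coding transcripts (1.45), on counts per exonic length (1.71) and without replicate 2 (0.093; -0.19 without replicate 1), against -0.046 with both. The count above the median expressed gene was 25 both by gene TPM and, as an alternative added after seeing the data, with transcripts of 20 or more counts only, over which Polr2b was not among them. The cause was not tested. No paired analysis was possible because there is 1 group. Depth limits the genes of few counts: Nelfa had 97 in library 2 and 40 in library 1.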

Other observations

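Some of the 41 genes hold other annotated genes, not classed as protein-coding and with 20 or more counts in both libraries, on the same strand within their bounds. Med13l holds 5 such genes, Gm43051, Gm43052, Gm43274, Gm43275 and Gm43788, with 19495 estimated counts in library 2 and 5599 in library 1, more than the 4862 counts of Med13l itself in library 2 and its 3002 in library 1. Their scaled ratio, library 2 over library 1, was 1.65 (95% counting interval 1.60 to 1.70), whereas that of Med13l was 0.768. Cdk13 holds 8430406P12Rik and Gm48624, with 904 counts in library 2 and 167 in library 1, a scaled ratio of 2.57 (2.18 to 3.05), beside 1.01 for Cdk13. Ell2 holds Gm48302, with 3754 counts in library 2 and 1228 in library 1, a scaled ratio of 1.45 (1.36 to 1.55), beside 1.24 for Ell2. In all 3 hosts the ratio of the genes inside was higher than that of the host. Whether these counts come from separate transcripts or from the host's own unspliced RNA cannot be told apart here. These genes were chosen after their values were seen.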
